A study of Homo sapiens with 6 samples.

Results

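Polyamine metabolism was examined in BT549, an established human breast cancer cell line that the labels place in mammary gland epithelial tissue, through the genes ODC1, AMD1, SRM, SMS, SAT1, SMOX, PAOX, OAZ1, OAZ2 and AZIN1. The genes were chosen by name for their roles in polyamine synthesis, breakdown and antizyme control, with no cutoff on measured values. Of these 10 genes, 9 had a row among the 19923 genes of the deposited table, and AMD1 was not analysed here. RNA was sequenced from 3 libraries of ENL-treated BT549 cells and 3 libraries of BT549 control cells. No label spells out ENL or gives its dose, duration or vehicle. Whether replicates were grown as separate cultures is likewise not stated, so the p-values reflect spread among these samples that may be only technical.

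Putrescine, spermidine and spermine are small positively charged molecules that bind RNA, DNA and ribosomes, and dividing cells need them. ODC1 makes putrescine from ornithine, AMD1 supplies the aminopropyl donor, and SRM and SMS add the aminopropyl groups that give spermidine and spermine. SAT1 acetylates spermidine and spermine for export or for oxidation by PAOX, while SMOX oxidises spermine directly. Antizymes (OAZ1, OAZ2) bind ODC1 protein, send it to the proteasome and block polyamine uptake, and the antizyme inhibitor AZIN1, a relative of ODC1 without its enzyme activity, draws antizyme away. Much of this control acts on translation and protein turnover, which mRNA levels do not show.

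In ENL-treated cells, ODC1 mRNA was 1.76-fold lower and SAT1 mRNA 1.96-fold higher than in control cells. SMOX was also lower, by 1.67-fold, and SRM and AZIN1 were higher, by 1.41-fold and 1.36-fold. SMS, PAOX, OAZ1 and OAZ2 did not pass the test. All 9 measured members were deep enough to be tested, and edgeR (quasi-likelihood F test, p adjusted over 14086 genes by Benjamini-Hochberg) called 3 higher and 2 lower at a threshold of 0.05. Of all genes tested, 38.4% were called in either direction, 20% higher and 18.4% lower, against 55.6% of these members in either direction. The libraries of the groups did not overlap for 5 of the 9 members, or 55.6%, close to the 54% found among all genes tested. None of the 9 members, 0 in count, passed the test with a 2-fold or larger change, beside 11.9% of all genes tested. The members' median log2 fold change was 0.43, beside -0.02 for all genes tested. The count of members called higher was 5 without ENL library 3, beside 3156 of all 14425 genes tested in that setting. It was 4 without control library 2 (2141 of 14323 genes). It was 2 without ENL library 1 (2298 of 14429), ENL library 2 (2482 of 14448), control library 1 (2174 of 14320) or control library 3 (2072 of 14338). Scaling by library totals alone gave 1 (1804 of 14086). In each of these settings 2 members were called lower, beside 1743 to 3996 of all genes.

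**Figure D1:**
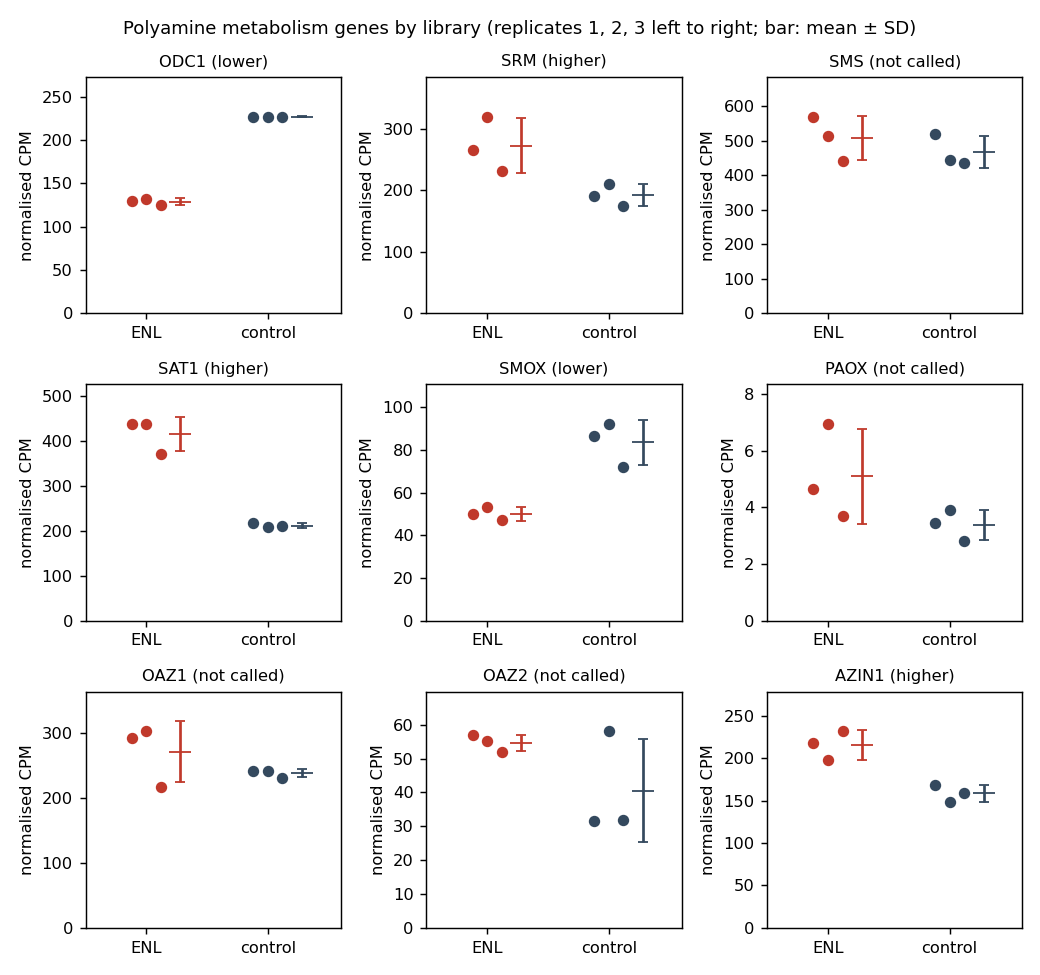
Normalised read count (CPM, vertical axes, from 0) of the 9 measured polyamine genes in each of the 3 ENL and 3 control libraries, with the mean and SD beside the points. ODC1 and SMOX lay lower in every ENL library than in any control library, and SRM, SAT1 and AZIN1 higher, whereas the groups overlapped for the other 4 genes.

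Library totals were 74457932 to 85310759 estimated counts, and the spacing of low values leaves it possible that 1 sequenced fragment gave about 4 units. Genes with ribosomal protein symbols took 13%, 13.4% and 10.9% of the counts in ENL libraries 1, 2 and 3, against 7.89%, 8.28% and 7.87% in control libraries, and their part in the results below was not tested. On the second principal component ENL library 3 scored -55.8, against 22 and 26.3 for its replicates, and member calls that change without it are given below. The epithelial genes EPCAM (0.249, 0.117 and 0 CPM in ENL; 0, 0 and 0.129 CPM in control) and CDH1 were near 0, while the keratins KRT8 (33.2 to 40.5 CPM in ENL and 13.2 to 18.0 CPM in control) and KRT18 (21.7 to 27.4 CPM in ENL and 23.1 to 31.3 CPM in control) were present. The 7 epithelial markers summed to 58.7 to 72.4 CPM in ENL and 41.4 to 68.7 CPM in control, with KRT8 called higher and KRT5 lower. The 4 mesenchymal markers, among them VIM, summed to 5879 to 6794 CPM in ENL and 2878 to 3585 CPM in control, with 3 of 4 called higher. Leukocyte markers (5 genes, with CD14 called lower) summed to 1.41 to 2.61 CPM in ENL and 8.22 to 13.1 CPM in control, and of the 4 endothelial markers, which summed to 5.56 to 6.56 CPM in ENL and 5.46 to 8.92 CPM in control, CDH5 and KDR were at 0 in all libraries. The part of these marker levels in the results was not tested. In such bulk RNA, fewer cells with a transcript and less of it per cell cannot be told apart.

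Promoter sequences are shown for the called members that RefSeq's windows cover, since ODC1 and SRM are textbook targets of MYC, which binds with MAX to the E-box CACGTG. Windows of 300 bases round annotated transcript starts (RefSeq, GRCh38.p14) were found for 6 of the 9 measured members, 7 windows in all, and none for SMOX, PAOX and AZIN1. The 250 bases before the start of ODC1 (chr2:10448328-10448577, minus strand), SRM (chr1:11060019-11060268, minus strand) and SAT1 (chrX:23782923-23783172, plus strand) read as follows, 5′ to 3′, with an E-box in capitals where there is one.
ODC1 promoter: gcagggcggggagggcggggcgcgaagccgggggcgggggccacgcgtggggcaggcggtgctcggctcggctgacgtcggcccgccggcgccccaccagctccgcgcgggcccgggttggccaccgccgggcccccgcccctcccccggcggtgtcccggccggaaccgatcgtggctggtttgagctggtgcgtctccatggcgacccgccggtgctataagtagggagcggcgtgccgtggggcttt
SRM promoter: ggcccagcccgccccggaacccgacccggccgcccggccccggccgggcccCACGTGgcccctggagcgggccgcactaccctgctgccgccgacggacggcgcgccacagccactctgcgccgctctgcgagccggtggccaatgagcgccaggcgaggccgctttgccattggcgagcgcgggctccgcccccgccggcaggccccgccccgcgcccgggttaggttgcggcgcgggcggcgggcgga
SAT1 promoter: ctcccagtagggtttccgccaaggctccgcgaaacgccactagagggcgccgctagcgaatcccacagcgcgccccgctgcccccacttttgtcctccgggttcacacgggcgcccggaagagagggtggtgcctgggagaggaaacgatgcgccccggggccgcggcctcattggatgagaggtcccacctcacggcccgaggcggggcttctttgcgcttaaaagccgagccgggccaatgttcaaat
ODC1 has a pair of E-boxes further down, in the first intron of the GENCODE 29 transcript ODC1-201, shown with 12 bases on each side (chr2:10448024-10448053 and chr2:10447990-10448019, minus strand).
ODC1 upstream E-box: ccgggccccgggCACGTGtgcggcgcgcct
ODC1 downstream E-box: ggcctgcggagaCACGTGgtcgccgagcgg

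Both strands of the windows were searched for that E-box, for the AP-1 element TGACTCA, for the element TATGACTAA described in human SAT1 as responsive to polyamines, and for TGATGCAA, the core of an amino acid response element, and no matches overlapped in the member windows. The E-box was found in 2 of the 7 member windows, that of SRM and that of a second annotated ODC1 start, which covers the pair shown above, beside 7.26% of all 35116 windows. TGACTCA was found in 1, that of OAZ2, beside 4.95% of all windows, and the other motifs in 0, beside 0.0997% and 0.866%. These are matches of letters, not shown binding sites, and the absence of letters from a window says nothing of the factor. The windows reach only 250 bases before a start, so an element further upstream, in SAT1 or elsewhere, was not searched for. SRM and ODC1, which hold the E-boxes, differed in opposite directions in ENL-treated cells, and any part of the E-boxes in this was not tested.

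Among the synthesis genes, ODC1 (chromosome 2, 10439968 to 10448504, minus strand, GRCh38), the rate-limiting enzyme of the pathway, had 129, 133 and 125 CPM in ENL libraries 1, 2 and 3, against 227, 227 and 226 CPM in control libraries 1, 2 and 3. The groups lay far apart, and the spread within them was small, with a coefficient of variation of 3.12% in ENL and 0.208% in control. The control value is smaller than counting error alone would usually give at 18418 to 19859 units, so it is no measure of precision. The log2 fold change of ODC1 was -0.82 ± 0.07 (SE, n = 3 per group, edgeR adjusted p = 0.000228). Its call was kept in all 17 other settings, with values from -1.02 to -0.70. The annotation holds a processed pseudogene, ODCP, that could share reads with it.

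SRM (chromosome 1, 11054584 to 11060024, minus strand), spermidine synthase, had 265, 320 and 231 CPM in ENL libraries, against 191, 211 and 175 CPM in control libraries. Every ENL library lay above every control library, although the lowest ENL library and the highest control library were close. Its log2 fold change was 0.50 ± 0.13 (SE, n = 3 per group, edgeR adjusted p = 0.0242). That call was lost without ENL library 1 (adjusted p = 0.0532), ENL library 2 (0.0507), control library 1 (0.0736) or control library 3 (0.0830), and the value was 0.37 without ENL library 2. Under scaling by library totals alone it was 0.29 (adjusted p = 0.0820). ENL library 2, with the highest SRM level, also had the highest ribosomal protein share, and ENL library 3 the lowest of the ENL libraries in both. That order of ENL libraries is not particular to SRM. ODC1, SMOX, PAOX, OAZ1 and, narrowly, SAT1 were also highest in ENL library 2 and lowest in ENL library 3, while SMS, OAZ2 and AZIN1 were not. SRM has the processed pseudogenes SRMP1 and SRMP2, which could share its reads.

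SMS (chromosome X, 21940573 to 21994835, plus strand), spermine synthase, had 570, 513 and 441 CPM in ENL libraries and 520, 445 and 435 CPM in control libraries. The groups overlapped over most of their range. Its log2 fold change was 0.12 ± 0.12 (edgeR adjusted p = 0.461), with a 95% interval of -0.16 to 0.41, and it turned to -0.09 under scaling by library totals alone. Left-out libraries moved it between 0.03 (without ENL library 1) and 0.23 (without ENL library 3), with 0.21 without control library 1, 0.07 without control library 3 and no call.

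Of the genes for breakdown and export, SAT1 (chromosome X, 23783173 to 23786226, plus strand), the spermidine and spermine acetyltransferase, had 437, 438 and 371 CPM in ENL libraries, against 217, 208 and 210 CPM in control libraries. Even ENL library 3, the lowest of its group, lay well above the control libraries. The log2 fold change was 0.97 ± 0.09 (SE, n = 3 per group, edgeR adjusted p = 0.000366), the largest in size among the 9 members. Its size exceeded that of 81.6% of all genes tested. SAT1 kept its call in all 17 other settings, with values from 0.76 to 1.06.

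SMOX (chromosome 20, 4120980 to 4187747, plus strand), spermine oxidase, whose reaction releases hydrogen peroxide, had 50.05, 53.5 and 47.0 CPM in ENL libraries, against 86.4, 92.3 and 72.0 CPM in control libraries. The groups did not overlap, and the lowest control library was number 3. SMOX had a log2 fold change of -0.74 ± 0.11 (edgeR adjusted p = 0.00303), and its call was kept in all 17 other settings, from -0.94 to -0.66. PAOX (chromosome 10, 133379234 to 133391694, plus strand), the peroxisomal oxidase of acetylated polyamines, was scarce, with 4.66, 6.96 and 3.68 CPM in ENL libraries and 3.44, 3.90 and 2.82 CPM in control libraries. These values came from 240 to 474 units per library, fewer than for any other member. PAOX had a log2 fold change of 0.59 ± 0.27 (edgeR adjusted p = 0.125), with a 95% interval of -0.04 to 1.22. Without ENL library 3 it was 0.79 (adjusted p = 0.0470), and without ENL library 2 it was 0.30 (adjusted p = 0.343). Summed with the overlapping gene AL360181.3, which shares 158 exon bases, it was 0.48 (adjusted p = 0.179).

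The antizyme genes showed no called difference, while their inhibitor AZIN1 was higher. OAZ1 (chromosome 19, 2269509 to 2273490, plus strand), the main antizyme gene, had 293, 303 and 217 CPM in ENL libraries and 241, 241 and 231 CPM in control libraries. ENL libraries 1 and 2 lay above all control libraries and ENL library 3 below them. The log2 fold change of OAZ1 was 0.19 ± 0.13 (edgeR adjusted p = 0.301), with a 95% interval of -0.12 to 0.50. It was 0.34 without ENL library 3 (adjusted p = 0.00590), 0.10 without ENL library 2 (adjusted p = 0.608) and -0.03 under scaling by library totals alone. OAZ1 shares 236 exon bases with JSRP1 on the opposite strand, and the sources used here do not say whether counting kept strand.

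OAZ2 (chromosome 15, 64687573 to 64703281, minus strand), a second antizyme gene, had 56.8, 55.2 and 52.1 CPM in ENL libraries and 31.6, 58.2 and 31.9 CPM in control libraries. Control library 2 lay above all ENL libraries, and the other control libraries well below them. Its log2 fold change was 0.43 ± 0.25 (edgeR adjusted p = 0.214), with a 95% interval of -0.16 to 1.03, and 0.79 without control library 2 (adjusted p = 0.00485). It was 0.28 without control library 1 (adjusted p = 0.444) and 0.29 without control library 3 (adjusted p = 0.443). AZIN1 (chromosome 8, 102826357 to 102893864, minus strand) had 218, 197 and 232 CPM in ENL libraries, against 169, 149 and 159 CPM in control libraries. The groups did not overlap, and ENL library 3, the lowest of its group for the other 8 measured members, was the highest for AZIN1. AZIN1 had a log2 fold change of 0.44 ± 0.09 (edgeR adjusted p = 0.00874). Its call held without each library in turn (adjusted p from 0.00954 to 0.0386) and was lost under scaling by library totals alone, with 0.24 (adjusted p = 0.120). Annotated antisense genes share 344 exon bases with AZIN1 and 554 with OAZ2.

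Levels of the members were set beside each other as CPM per kilobase of the longest annotated coding transcript, which need not be the transcript expressed. On that scale SAT1 came first in ENL-treated cells, with 390 ± 36.4 (SD, n = 3), and the third in control cells, with 199 ± 4.43. SMS had 276 ± 35.3 in ENL and 254 ± 25.5 in control, OAZ1 236 ± 41.0 in ENL and 207 ± 5.18 in control, and SRM 215 ± 35.3 in ENL and 152 ± 13.9 in control. ODC1 had 48.5 ± 1.51 in ENL and 85.5 ± 0.177 in control, and AZIN1 45.7 ± 3.70 in ENL and 33.7 ± 2.12 in control. OAZ2 had 28.3 ± 1.25 in ENL and 21.0 ± 7.89 in control, SMOX 21.6 ± 1.39 in ENL and 36.0 ± 4.52 in control, and PAOX 2.74 ± 0.905 in ENL and 1.82 ± 0.290 in control. In ENL the ranges of the libraries overlapped between the neighbours SMS and OAZ1, OAZ1 and SRM, and ODC1 and AZIN1. In control they overlapped between OAZ1 and SAT1, and between SMOX and AZIN1, so the order within those pairs is not resolved.

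Ratios between members within a library do not depend on how libraries are scaled, and 6 pairs were compared as the log2 ratio of estimated counts, with 4 added to each. The ratio of SAT1 to ODC1 was 1.76, 1.72 and 1.57 in ENL libraries, against -0.07, -0.13 and -0.11 in control libraries. Counts here are not divided by length, so only the difference between groups is read: every ENL library lay far above every control library, a 3.45-fold higher ratio (1.79 on the log2 scale). The ratio of ODC1 to OAZ1 was -1.18, -1.19 and -0.80 in ENL libraries, against -0.09, -0.09 and -0.03 in control libraries, a 1.98-fold lower ratio in ENL. The ratio of SMOX to SAT1 was -3.13, -3.03 and -2.98 in ENL libraries, against -1.33, -1.17 and -1.55 in control libraries, a 3.24-fold lower ratio in ENL. For these 3 pairs the groups did not overlap, and each had p = 0.1 in a two-sided exact permutation test, the smallest that 3 libraries against 3 can give (adjusted p = 0.2 over the 6 pairs). Such ratios largely restate the differences of the single genes given above and are no separate check on them.

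**Figure D2:**
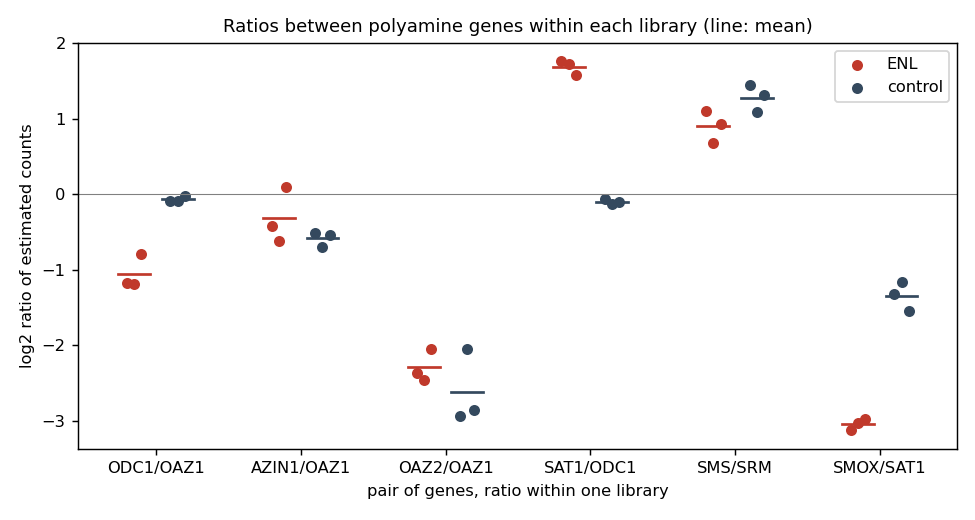
Log2 ratio of estimated counts between pairs of polyamine genes (vertical axis) in each ENL library and each control library, with the group mean as a line. The groups are apart for ODC1/OAZ1, SAT1/ODC1 and SMOX/SAT1 and overlap for AZIN1/OAZ1, OAZ2/OAZ1 and SMS/SRM.

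The remaining ratios had overlapping groups. AZIN1 to OAZ1 differed by 0.27 (exact permutation p = 0.3, adjusted 0.36), with means of -0.31 ± 0.37 in ENL and -0.58 ± 0.10 in control (SD, n = 3), and by 0.06 without ENL library 3. OAZ2 to OAZ1 differed by 0.32 (exact permutation p = 0.4, adjusted 0.4), with means of -2.29 ± 0.21 in ENL and -2.61 ± 0.49 in control, and by 0.60 without control library 2 and 0.16 without control library 1. SMS to SRM differed by -0.37 (exact permutation p = 0.2, adjusted 0.3), with means of 0.90 ± 0.21 in ENL and 1.28 ± 0.18 in control.

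Among 43 further genes of the pathway and its surroundings, all of which had a row, 36 were tested, of which 8 were called higher and 5 lower in edgeR's test, with a median log2 fold change of -0.11. These 36.1% called are close to the 38.4% of all genes tested, and without ENL library 3 9 were called higher and 7 lower. The lists below are short, and their counts with all libraries are to be read beside that 38.4%. Counts without ENL library 3 are to be read beside the 3156 genes higher and 2877 lower of 14425 tested in that setting. Among relatives of the members, AZIN2, a second antizyme inhibitor, and SAT2, an acetyltransferase related to SAT1 whose preferred substrate is thialysine, were called higher, 2 of 3 tested. SAT2 (chromosome 17, 7626234 to 7627876, minus strand) had 109, 101 and 102 CPM in ENL libraries, against 26.6, 21.3 and 19.97 CPM in control libraries, a log2 fold change of 2.20 ± 0.13 (edgeR adjusted p = 6.44e-05). AZIN2 had 20.8, 23.4 and 21.2 CPM in ENL libraries, against 8.39, 8.96 and 9.19 CPM in control libraries, a log2 fold change of 1.30 ± 0.11 (edgeR adjusted p = 0.000271). AZIN2 and SAT2 thus lay above all control libraries in each ENL library, as SAT1 and AZIN1 did, and both kept their calls in all 17 other settings. The other relative tested, the antizyme gene OAZ3, went the other way and was not called, with -1.14 ± 0.42 (edgeR adjusted p = 0.0681). It was scarce, with 45 to 237 units per library. OAZ3 was called lower by the DESeq2 Wald test (0.0369), under library totals alone (0.0379) and without ENL library 1 (0.0393).

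**Figure D3:**
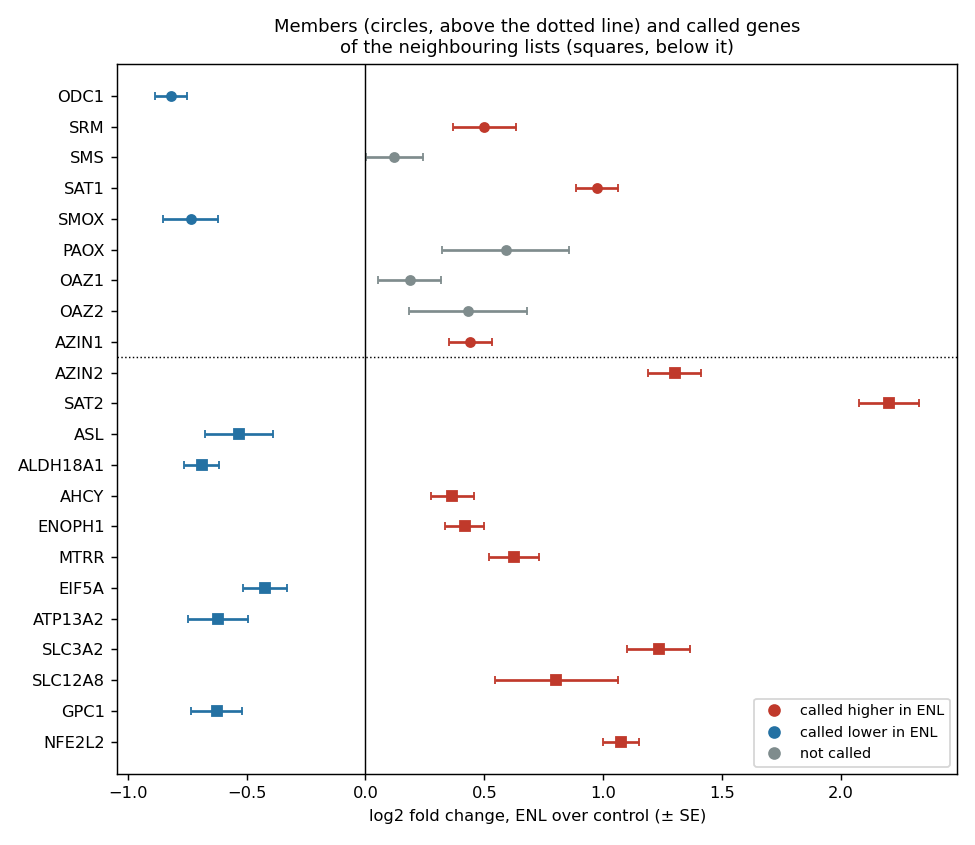
Log2 fold change of ENL over control (horizontal axis, with SE bars) for the 9 members (circles) and for the 13 called genes of the neighbouring lists (squares). SAT2, at 2.20, is the largest in size, and ODC1, SMOX and 5 of the neighbouring genes lie below 0.

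Of the genes that supply arginine and ornithine, the precursors of putrescine, 0 of 9 tested were called higher and 2 lower. Without ENL library 3 there were 3 called lower, with ARG2 and SLC7A2 joining and ASL leaving, genes singled out here after their values were seen. ALDH18A1, the enzyme that starts ornithine and proline synthesis from glutamate, had 94.2, 97.2 and 99.7 CPM in ENL libraries, against 162, 148 and 160 CPM in control libraries, a log2 fold change of -0.69 ± 0.07 (edgeR adjusted p = 0.000677). ASL, which releases arginine from argininosuccinate, had a log2 fold change of -0.53 ± 0.14 (edgeR adjusted p = 0.0252), and that call was lost without ENL library 3 (0.0510), control library 2 (0.0881) or control library 3 (0.0641). ASL shares 563 exon bases with AC068533.4 on the same strand, which leaves its value uncertain.

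In the methionine cycle and the salvage of methylthioadenosine, the by-product of SRM and SMS, 3 of 10 tested genes were called higher and 0 lower. MAT2A, which makes S-adenosylmethionine, was not called, at -0.27 (edgeR adjusted p = 0.0784). Without ENL library 3 it was called lower, at -0.36 (adjusted p = 0.00512). Other settings that called it lower include upper-quartile scaling (0.0288), library totals alone (0.0212) and at least 10 CPM in 3 libraries (0.0486). DESeq2 size factors (0.0763), limma-voom (0.0664) and the DESeq2 Wald test (0.0727) did not. MAT2A shares 558 exon bases with GGCX on the opposite strand. MTRR, which reactivates methionine synthase, had a log2 fold change of 0.62 ± 0.11 (edgeR adjusted p = 0.00433), with 31.0, 31.3 and 35.5 CPM in ENL libraries, against 21.7, 19.4 and 22.4 CPM in control libraries. It shares 305 exon bases with C5orf49 on the opposite strand. ENOPH1, a salvage enzyme, had 0.42 ± 0.08 (adjusted p = 0.00765, lost under scaling by library totals alone with 0.102). AHCY, which removes S-adenosylhomocysteine, had 0.37 ± 0.09 (adjusted p = 0.0175), lost under upper-quartile scaling (0.0523), library totals alone (0.115), and without ENL library 1 (0.0545), control library 1 (0.0684) or control library 3 (0.0617).

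Spermidine is the donor of hypusine, a modification that the translation factor eIF5A needs, and of the 4 genes of that route 0 were called higher and 1 lower. EIF5A had 420, 452 and 371 CPM in ENL libraries, against 530, 565 and 572 CPM in control libraries, a log2 fold change of -0.42 ± 0.09 (edgeR adjusted p = 0.0117). It shares 241 exon bases with GPS2 on the opposite strand. DHPS, the enzyme that transfers the spermidine moiety, had 0.26 ± 0.09 (edgeR adjusted p = 0.0505), and it was called higher without ENL library 3 (0.0466), by limma-voom (0.0476) and by the DESeq2 Wald test (0.0403). DHPS shares 1157 exon bases with AC010422.8 on the same strand, which leaves its value uncertain.

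Of 7 tested transport genes, 2 were called higher and 2 lower, and without ENL library 3 these were 1 and 2. ATP13A3, not called and singled out after its value was seen, turned to -0.08 without that library, against 0.50 with it. SLC3A2, the heavy chain of several amino acid transporters that has also been linked to polyamine export, had 732, 541 and 707 CPM in ENL libraries, against 305, 264 and 274 CPM in control libraries, a log2 fold change of 1.23 ± 0.13 (edgeR adjusted p = 0.000697). ATP13A2, the lysosomal polyamine exporter, had 29.2, 37.7 and 28.8 CPM in ENL libraries, against 46.9, 49.1 and 51.0 CPM in control libraries, a log2 fold change of -0.62 ± 0.13 (edgeR adjusted p = 0.00862). An annotated antisense gene shares 189 of its exon bases. GPC1, a cell-surface proteoglycan implicated in polyamine uptake, had -0.63 ± 0.11 (edgeR adjusted p = 0.00453). SLC12A8, a transporter of the cation-chloride family linked to polyamine transport, had 0.80 ± 0.26 (edgeR adjusted p = 0.0457), and that call was lost in 8 of 17 other settings, among them the replicate block (0.0718), upper-quartile scaling (0.0623) and library totals alone (0.115). Left-out libraries gave it adjusted p values of 0.0760 (without ENL library 1), 0.0968 (ENL library 2), 0.1003 (ENL library 3), 0.130 (control library 2) and 0.108 (control library 3).

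Among regulators, NFE2L2 (NRF2), which can drive SAT1 transcription, was called higher, with 213, 196 and 214 CPM in ENL libraries, against 103, 94.8 and 98.4 CPM in control libraries. Its log2 fold change was 1.07 ± 0.08 (edgeR adjusted p = 0.000137). NFE2L2 shares 1054 exon bases with AC019080.1 on the same strand and 190 with AC079305.1 on the opposite strand, which leaves its value uncertain. MYC had 31.0, 33.8 and 37.0 CPM in ENL libraries and 27.8, 28.9 and 105 CPM in control libraries, so that control library 3 stood far above all others. The log2 fold change of MYC was -0.66 ± 0.55 (edgeR adjusted p = 0.386) and turned to 0.26 without control library 3 (adjusted p = 0.176). MAX, the partner of MYC, had 0.54 ± 0.18 (edgeR adjusted p = 0.0543), and 0.74 without ENL library 3 (adjusted p = 0.00274). With all libraries MAX was called higher by the DESeq2 Wald test (0.0224). It was not called by limma-voom (0.0715), under upper-quartile scaling (0.0941) or under library totals alone (0.162).

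The values also depend on how libraries are scaled. Scaling by library totals alone shifted the all-gene median to -0.23 (log2), and with it 1804 genes were called higher and 3996 lower (31.1% of calls higher), against 2819 higher and 2585 lower (52.2%) with the trimmed mean scaling used above. Relative to that median, the members stood at -0.80 (ODC1), -0.72 (SMOX), 0.52 (SRM), 0.14 (SMS), 0.99 (SAT1), 0.60 (PAOX), 0.20 (OAZ1), 0.45 (OAZ2) and 0.46 (AZIN1). Subtracting the median largely undoes a change of scaling. These values therefore nearly repeat those of the trimmed mean scaling relative to its own median (ODC1 -0.80, SAT1 0.99) and are no separate check.

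**Figure D4:**
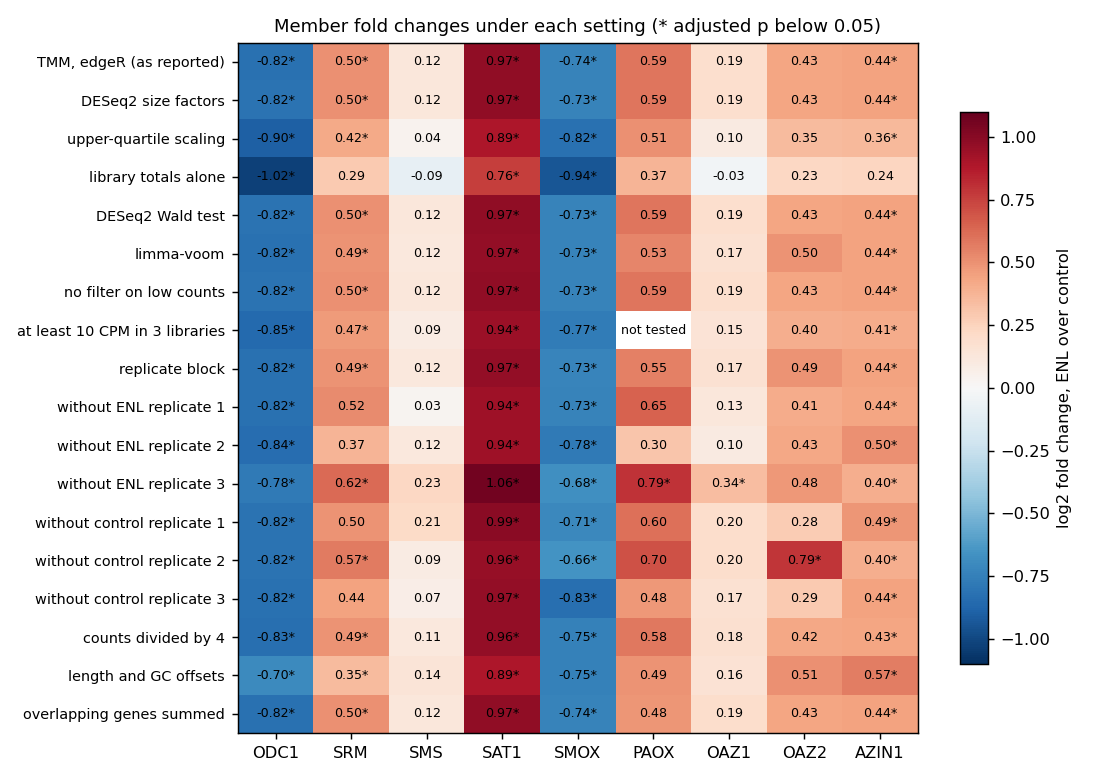
Log2 fold change of ENL over control (colour and printed value) for the 9 measured members (columns) under the reported fit and 17 other settings (rows), with a star at an adjusted p below 0.05. ODC1, SAT1 and SMOX are starred in every row, and SRM, AZIN1, PAOX, OAZ1 and OAZ2 change their star in some.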

How the data were processed

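The authors deposited 1 table with an estimated count per gene symbol and library. The build hg38 and the tools StringTie, STAR, DESeq2 and FastQC appear in the submitters' processing notes without versions or roles, and no source used here states strand handling. Values are whole numbers, but 70.8% to 73.1% of those from 4 to 43 lay at multiples of 4 or 1 above, so low values may carry more counting error than their size shows. Replicates of a group differed by more than sampling noise and all 6 libraries were counted.

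Genes of the whole table that passed filterByExpr at a minimum count of 10 were fitted in edgeR with TMM factors by the quasi-likelihood F test (robust, two-sided, group alone in the model), with Benjamini-Hochberg adjustment over 14086 genes and a threshold of 0.05. Standard errors were derived from the F statistic, and CPM uses TMM factors. The procedure was tested on simulated data. Versions were edgeR 4.0.16, DESeq2 1.42.0 and limma 3.58.1 under R 4.3.3. Symbols were matched to GENCODE 29 (GRCh38) for 99.4% of genes, which gave coordinates, transcript lengths and exon overlaps.

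The members and lists were chosen with earlier results of these data known. All measured members are described. Of each other list, genes past the threshold and up to 2 others with the smallest adjusted p could be named; 1 listed gene is not reported here. A seventh ratio, with AMD1, was not analysed. Alternatives were DESeq2 size factors, upper-quartile scaling, library totals, limma-voom, DESeq2's own Wald test, all genes unfiltered, at least 10 CPM in 3 libraries, a replicate block, each library left out, counts divided by 4, length and GC offsets, and overlapping genes summed. Pseudocounts of 1 and 40 were tried for ratios.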

Additional observations from a re-analysis of the deposited data

How the results depend on the processing

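The calls of ODC1, SAT1 and SMOX kept their direction and their side of the threshold in all 17 other settings. The summing of overlapping genes, 1 of these settings, added counts to OAZ1 and PAOX alone. It could hardly move any other gene and is no check on their calls. Scaling by library totals alone gave 1804 genes higher and 3996 lower and 1 member higher, and turned SMS to -0.089 and OAZ1 to -0.0275, with SRM at 0.29 and AZIN1 at 0.24 no longer called; its median of all genes, -0.23, shows a shift of the whole scale. With 1 library left out, genes called higher ranged from 2072 to 3156 and lower from 1743 to 2877, members higher from 2 to 5, and members lower stayed at 2. Fits without a library rest on fewer samples. The 6 ratios kept their sign under pseudocounts of 1 and 40 and without any single library.

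The labels do not say whether same-numbered libraries were handled together. The correlations of their deviations from the group means were 0.03, 0.046 and 0.08. ENL library 1 correlated about as well with control library 2 (0.032), and such values cannot decide whether libraries were paired. A replicate block lowered the SE of every measured member, from 0.134 to 0.073 for SRM and from 0.066 to 0.064 for ODC1. With the replicate block 2631 genes were higher and 2310 lower, and 3 members were higher and 2 lower, so the pairing changed no member's call; of the other listed genes it ended the call of SLC12A8 (adjusted p = 0.0718). PAOX could not be tested at 10 CPM or more in 3 libraries. Depth limits PAOX most, at 240 to 474 units per library.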
